A study of Mus musculus with 6 samples.

Results

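The genes described here are 10 members of the ATF4 and serine synthesis stress response, taken from the table by gene symbol: *Atf4*, *Ddit3*, *Trib3*, *Chac1*, *Asns*, *Phgdh*, *Psat1*, *Psph*, *Shmt2* and *Mthfd2*. All 10 were found among the 32493 genes of the count table, and 10 of 10 passed the filter on low counts. Poly(A) RNA-seq was carried out on cultured mouse neural stem cells (NSCs) taken at E14.5. The cko cells came from embryos with floxed *Mir151* alleles and Emx1-IRES-Cre, which drives recombination in the dorsal telencephalon, and the ctrl cells came from littermates with the floxed alleles and no Cre, both on a C57BL/6J background. The NSCs were dissected from around the lateral ventricles and expanded in medium with EGF and bFGF, so cells in which Emx1-Cre was never active may be among them. The comparison asks which transcripts of these genes differ when miR-151 is deleted.

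ATF4 is a transcription factor whose translation rises when kinases that sense missing amino acids, misfolded proteins or other stresses phosphorylate eIF2. It binds DNA together with C/EBP family partners at composite sites and turns on genes for amino acid import and synthesis. De novo serine synthesis branches from glycolysis through PHGDH, PSAT1 and PSPH, and the serine it makes feeds the mitochondrial one-carbon enzymes SHMT2 and MTHFD2, a supply on which dividing cells draw.

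There were 3 cko libraries and 3 ctrl columns, but ctrl column 2 was the rounded-up mean of ctrl columns 1 and 3 in 32493 of 32493 genes and was counted in no n. The comparison therefore rested on ctrl 1 and ctrl 3 against cko 1, cko 2 and cko 3, with 17883796 to 23335736 counts per library. The labels do not say whether replicates were separate embryos or cultures, so the p-values measure only the spread between these libraries. *Mir151* itself was not analysed here, so the genotype labels could not be checked on the deleted gene. Among markers of the labelled cell type, *Nes* was at 471 and 537 normalized CPM (counts scaled to library totals that were adjusted by edgeR's TMM factors) in ctrl and at 874, 1068 and 1034 CPM in cko, and *Sox2* was between 556 and 626 CPM in every library. The 12 NSC markers summed to 7824 to 8909 CPM in ctrl and 9261 to 9991 CPM in cko, with 4 called higher and 2 lower. The summed level of 12 astrocyte markers was 5361 to 6879 CPM in ctrl and 2187 to 3885 CPM in cko, and 8 of the 12 were called lower. Of 12 oligodendrocyte lineage markers, 7 were called lower and 2 higher, and the list's median log2 fold change of cko over ctrl was -1.26. Their summed level was 3924 to 4584 CPM in ctrl and 3799 to 3936 CPM in cko, and it hides moves in opposite directions. The 2 called higher were *Olig1*, at 1097 and 1351 CPM in ctrl and 1809 to 1994 CPM in cko, and *Olig2*. The 12 neuron markers summed to 1273 to 1344 CPM in ctrl and 1424 to 1487 CPM in cko. Most of each sum was *Map2*, at 959 to 1032 CPM in ctrl and 1084 to 1124 CPM in cko, which was not called. Among the 9 tested, *Syt1* and *Elavl4* were called higher and *Dcx* lower. Microglia markers summed to at most 2.08 CPM in any library, with *Cx3cr1* and *Itgam* at 0, and endothelial and mesenchymal markers to at most 8.91 CPM, with *Cdh5* at 0. Over all tested genes, 7.86% were called higher and 8.57% lower by the test given below. The part of these cell type differences in the results below was not tested, and in bulk RNA fewer cells of a type and less RNA per cell cannot be told apart.

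*Psat1* rose in cko NSCs, *Ddit3* and *Trib3* fell, and the other 7 members did not pass the test. A gene was called where its adjusted p, from edgeR's quasi-likelihood fit and Benjamini-Hochberg adjustment over 16710 genes, was under 0.05. Of the 10 members 1 was called higher, beside 7.86% of all tested genes, and 2 were called lower, beside 8.57%, so that 3 of 10 were called in either direction, beside 16.4%. Without cko 2 no member was called, without cko 3 only *Psat1*, and without cko 1 only *Psat1* and *Ddit3*. Calls over all genes also fell in these fits, from 1314 higher and 1432 lower to 317 and 416 without cko 2, 336 and 457 without cko 3 and 853 and 907 without cko 1. The median log2 fold change of the members was -0.21, beside -0.0026 over all tested genes. The same 3 members were those whose cko and ctrl libraries did not overlap, 1 of them above both ctrl libraries, beside 25.4% of all tested genes, and 2 below, beside 24.3%, or 49.7% in either direction. Levels are given below as CPM normalized by the trimmed mean of M-values (TMM), and fold changes as log2 of cko over ctrl. Fits with 1 ctrl library take their spread from the cko libraries alone and so leave out the difference between the ctrl libraries.

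**Figure D1:**
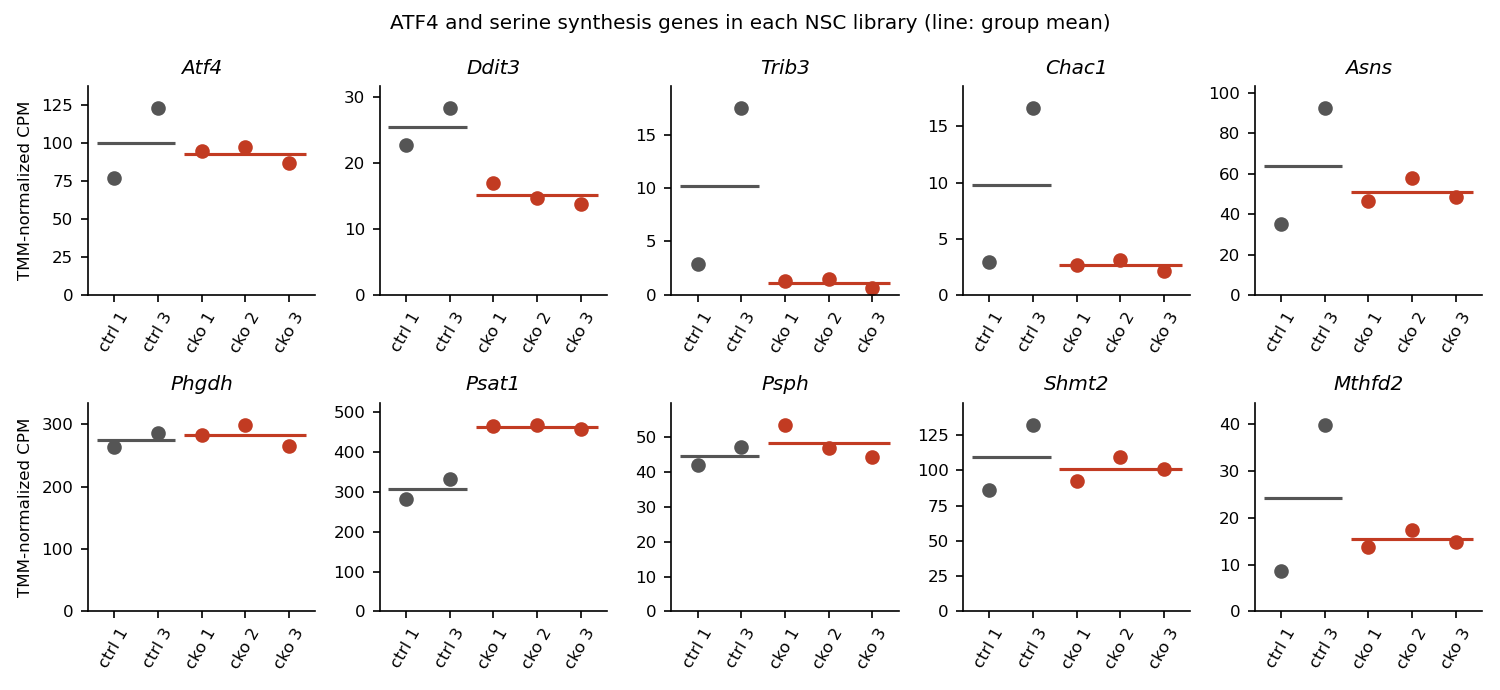
Normalized level (TMM-normalized CPM, linear axis from 0) of each member in the 2 ctrl and 3 cko libraries; points are libraries and lines are group means. *Psat1* lies between 459 and 469 CPM in cko and between 282 and 332 CPM in ctrl, while *Trib3*, *Chac1*, *Asns* and *Mthfd2* are over 2-fold higher in ctrl 3 than in ctrl 1.

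*Atf4* (ENSMUSG00000042406, chr15:80255184-80257541 in GRCm38, plus strand) encodes the transcription factor at the head of the response. Its level was 77.1 CPM in ctrl 1 and 123 CPM in ctrl 3, and 94.6, 97.4 and 87.0 CPM in cko 1, cko 2 and cko 3. Every cko library lay between the 2 ctrl libraries. The log2 fold change was -0.10 ± 0.18 (SE, 3 cko against 2 ctrl libraries), with a 95% interval of -0.52 to 0.31 and an edgeR adjusted p of 0.733. ATF4 is controlled largely at translation, which these transcript counts do not measure.

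*Ddit3* (ENSMUSG00000025408, chr10:127290774-127296288, plus strand) encodes CHOP, a C/EBP family factor induced under ATF4. It was at 22.6 and 28.2 CPM in ctrl 1 and ctrl 3, and at 17.0, 14.7 and 13.8 CPM in the cko libraries. Every cko library was below both ctrl libraries. *Ddit3* fell by 0.74 ± 0.15 on the log2 scale (SE), with an edgeR adjusted p of 0.0162. It was lower against either ctrl library taken alone, with log2 fold changes of -0.57 against ctrl 1 and -0.91 against ctrl 3. The call was lost when cko 2 or cko 3 was left out, at log2 fold changes of -0.73 and -0.69, and the highest edgeR adjusted p was then 0.0833. The exons of *Ddit3* share 68 bases with *Mars* on the opposite strand (1736 to 2835 counts per library) and 13 with Gm4189. The strand setting of the counting is not given in the sources used here. Another annotated gene entry also named *Ddit3* shares 105 bases on the same strand and is absent from the count table.

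*Trib3* (ENSMUSG00000032715, chr2:152337422-152344032, minus strand) encodes a pseudokinase that ATF4 and CHOP induce and that feeds back on both. Its level was 2.88 CPM in ctrl 1, 17.4 CPM in ctrl 3 and 1.29, 1.46 and 0.689 CPM in cko 1, cko 2 and cko 3. The cko libraries were lower than both ctrl libraries, but ctrl 3 was 6.05-fold above ctrl 1. *Trib3* fell by 3.13 ± 0.70 on the log2 scale (SE; 95% interval -4.78 to -1.49; edgeR adjusted p = 0.0253). It was the single member past the study's threshold of a log2 fold change beyond 0.9 with an unadjusted p under 0.01. That threshold was applied here to edgeR and not to the study's DESeq2 results. Of all tested genes 4.17% passed it in the lower direction and 2.39% in the higher, where no member passed. Against ctrl 1 alone the log2 fold change was -1.33, and against ctrl 3 alone it was -3.93, so its size depended on the ctrl library used. Without cko 1, cko 2 or cko 3 the log2 fold change was -3.23, -3.38 and -2.88, and the edgeR adjusted p was 0.0849, 0.0907 and 0.108. Counts were low, with 15 to 34 in the cko libraries and 66 and 327 in ctrl 1 and ctrl 3. The ratio of *Trib3* to *Atf4* was 0.0374 and 0.142 in ctrl and 0.0136, 0.0150 and 0.00793 in cko (exact two-sided permutation p = 0.1, the smallest that the 10 splits allow). As *Trib3* alone already separated the groups, this ratio is no independent evidence.

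*Chac1* (ENSMUSG00000027313, chr2:119351229-119354381, plus strand) encodes a glutathione-degrading enzyme under ATF4 control. It was at 2.93 CPM in ctrl 1 and 16.6 CPM in ctrl 3, and at 2.69, 3.09 and 2.16 CPM in the cko libraries. The cko libraries stood around ctrl 1, and ctrl 3 stood 5.67-fold above ctrl 1. The log2 fold change was -1.87 ± 0.61 (SE), with a 95% interval of -3.31 to -0.43 and an edgeR adjusted p of 0.0795. It was -2.65 against ctrl 3 alone and -0.14 against ctrl 1 alone.

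*Asns* (ENSMUSG00000029752, chr6:7675169-7693254, minus strand) encodes asparagine synthetase, a classical amino acid response gene. It was at 35.1 and 92.4 CPM in ctrl 1 and ctrl 3, and at 46.8, 58.0 and 48.5 CPM in the cko libraries. All cko libraries lay between the ctrl libraries. The log2 fold change was -0.31 ± 0.34 (SE; edgeR adjusted p = 0.572). Against ctrl 1 alone *Asns* was higher at 0.55, and against ctrl 3 alone it was lower at -0.86.

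The promoters of the members were searched for the composite C/EBP and ATF4 element, whose core was spelled TGATGNAA, on both strands of a window from 250 bases before to 50 bases after each RefSeq start (GRCm38.p6). The core was found in *Chac1*, *Trib3* and *Asns*, that is in 3 of 10 members, beside 4.51% of 27025 genes with a window and 3.97% of 32851 windows, since some genes, *Psat1* among them, have more than 1 window. A second spelling, TGNNGCAAT, was chosen after the promoters had been read and is no independent evidence; it occurs in *Chac1*, *Trib3* and *Psat1* and in 2.46% of genes (2.12% of windows). The ERSE, the element of endoplasmic reticulum stress genes, was found in no member and in 0.137% of genes (0.119% of windows). Every match in a member is given in a 30-base stretch, so that the letters can be compared between members that were called in opposite directions or not called; capitals mark the matched letters, and the stretch is written along the gene's strand.
Chac1 core, chr2:119351038-119351067, plus strand: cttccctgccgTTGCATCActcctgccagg
Trib3 core, chr2:152344028-152344057, minus strand: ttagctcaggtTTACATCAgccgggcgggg
Asns core, chr6:7693214-7693243, minus strand: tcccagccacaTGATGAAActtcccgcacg
Chac1 second spelling, chr2:119350992-119351021, plus strand: TGACGCAATctgactcgcccttgctgcatg
Trib3 second spelling, chr2:152344074-152344103, minus strand: gggtcacagaTGGTGCAATcccgggccgct
Psat1 second spelling, chr19:15925176-15925205, minus strand: cgcgggtggcTGGTGCAATcccctgctctc

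The *Trib3* and *Psat1* matches to the second spelling carry the same 9 letters, while *Trib3* was called lower and *Psat1* higher. The match of *Chac1*, which was not called, is TGACGCAAT. The core match of *Trib3* lies after the RefSeq start, and the last 30 bases of the *Trib3* window were not found in the GENCODE M21 transcripts, whose starts lie downstream of the RefSeq start; those of all other member windows were found. These matches are letters in a window and no binding was measured.

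*Phgdh* (ENSMUSG00000053398, chr3:98313170-98339990, minus strand) encodes the first enzyme of serine synthesis. It was at 264 and 287 CPM in ctrl and at 283, 299 and 265 CPM in cko. The groups overlapped, and the log2 fold change was 0.04 ± 0.084 (SE), with a 95% interval of -0.16 to 0.23 and an edgeR adjusted p of 0.805.

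*Psat1* (ENSMUSG00000024640, chr19:15904678-15947337, minus strand) encodes the aminotransferase of the second step. It was at 282 and 332 CPM in ctrl 1 and ctrl 3, and at 465, 469 and 459 CPM in cko 1, cko 2 and cko 3. All cko libraries were above both ctrl libraries and within 0.030 of each other on the log2 scale. *Psat1* rose 1.51-fold, or 0.60 ± 0.090 on the log2 scale (SE; 95% interval 0.39 to 0.81; edgeR adjusted p = 0.00654). It was higher against either ctrl library alone, by 0.72 against ctrl 1 and 0.47 against ctrl 3. Without cko 2 the log2 fold change was 0.58 and was not called (edgeR adjusted p = 0.0536).

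*Psph* (ENSMUSG00000029446, chr5:129765558-129787449, minus strand) encodes the phosphatase that releases serine. It was at 42.1 and 47.3 CPM in ctrl and at 53.5, 47.0 and 44.3 CPM in cko. The groups overlapped, and the log2 fold change was 0.11 ± 0.11 (SE; edgeR adjusted p = 0.521). Its exons share 452 bases with *Cct6a* on the opposite strand, a gene with 4262 to 5616 counts per library, so its counts are uncertain.

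Within the serine pathway the ratio of *Psat1* to *Phgdh* was 1.07 and 1.16 in ctrl and 1.64, 1.57 and 1.73 in cko. The ratio of *Psat1* to *Psph* was 6.70 and 7.01 in ctrl and 8.68, 9.96 and 10.4 in cko. Neither ratio overlapped between groups, and the exact two-sided permutation p was 0.1 for each, the smallest that 10 splits allow. *Psat1* alone already separated the groups while *Phgdh* and *Psph* overlapped, so these ratios are no independent evidence. Of the 4 ratios computed, that of *Mthfd2* to *Shmt2* overlapped, with an exact p of 0.7, and none could reach 0.05 in this design.

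*Shmt2* (ENSMUSG00000025403, chr10:127517123-127522444, minus strand) encodes the mitochondrial enzyme that splits serine into glycine and a one-carbon unit. It was at 86.3 and 132 CPM in ctrl 1 and ctrl 3, and at 92.4, 110 and 101 CPM in the cko libraries. All cko libraries lay between the ctrl libraries, and the log2 fold change was -0.11 ± 0.17 (SE; edgeR adjusted p = 0.694).

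*Mthfd2* (ENSMUSG00000005667, chr6:83305691-83325908, minus strand) encodes the next mitochondrial enzyme, which oxidizes that one-carbon unit. It was at 8.69 CPM in ctrl 1, 39.8 CPM in ctrl 3 and 13.8, 17.4 and 14.8 CPM in cko. All cko libraries again lay between the ctrl libraries, which differed 4.58-fold. The log2 fold change was -0.65 ± 0.51 (SE; 95% interval -1.85 to 0.55; edgeR adjusted p = 0.421). It was 0.83 against ctrl 1 alone and -1.38 against ctrl 3 alone, in opposite directions.

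**Figure D2:**
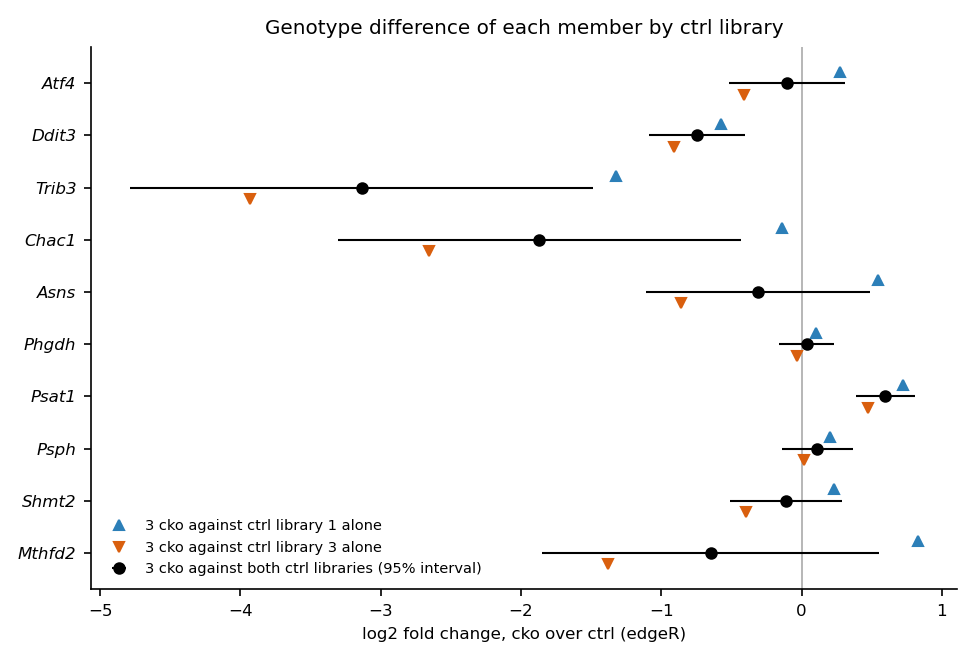
Log2 fold change of cko over ctrl for each member from edgeR, with the 95% interval for the fit on both ctrl libraries (black) and the values against ctrl 1 alone (blue) and ctrl 3 alone (orange). *Psat1* stays above 0 and *Ddit3* and *Trib3* stay below 0 in all 3 fits, while *Atf4*, *Asns*, *Shmt2* and *Mthfd2* lie on opposite sides of 0.

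The choice of ctrl library set the direction of several members. All 10 members were higher in ctrl 3 than in ctrl 1, beside 49.4% of all tested genes, and 4 of 10 were over 2-fold higher, beside 4.23%. The median difference was 0.64 on the log2 scale, against a median absolute difference between the 2 ctrl libraries of 0.230 over all tested genes. For 4 members, *Atf4*, *Asns*, *Shmt2* and *Mthfd2*, every cko library lay between the ctrl libraries, beside 11.1% of all tested genes. Against ctrl 3 alone 7 members were called lower, beside 11.9% of all tested genes, and 1 higher, beside 9.74%. Against ctrl 1 alone 1 member was called lower, beside 10% of all tested genes, and 3 higher, beside 10.3%. Only *Psat1* and *Ddit3* were called in the same direction in both of these fits. Of the 12 astrocyte markers 5 were higher in ctrl 3 than in ctrl 1, with a median difference of -0.21 on the log2 scale; their part in the members' difference was not tested.

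**Figure D3:**
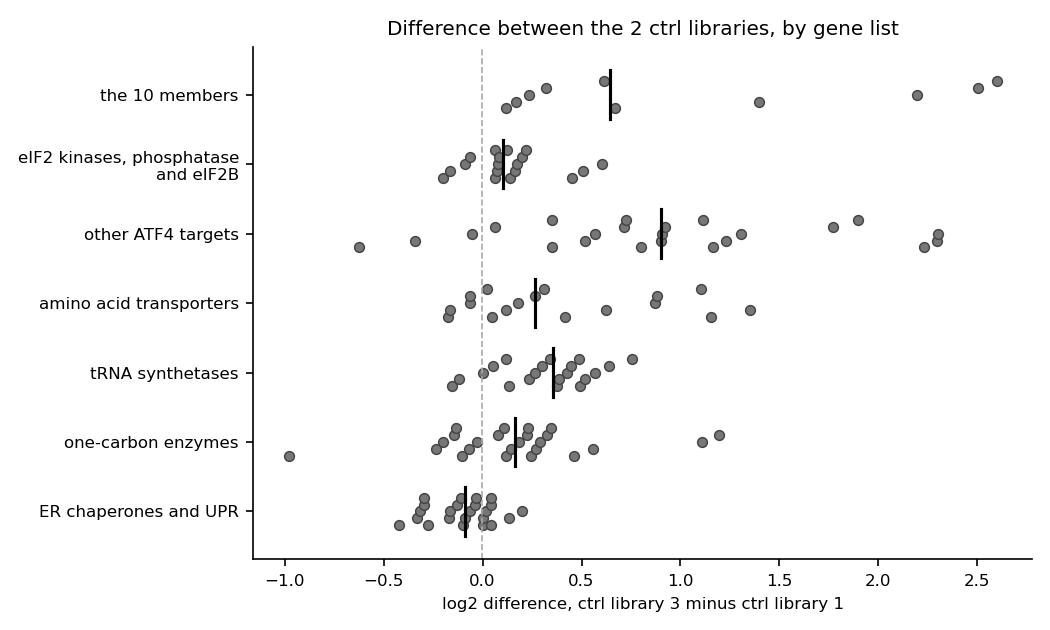
Log2 difference between ctrl 3 and ctrl 1 for the members and for each tested gene of 6 related lists; points are genes, black bars are list medians and the dashed line is the median of all tested genes. The members have a median of 0.64 and the other ATF4 targets of 0.90, and the endoplasmic reticulum list of -0.09.

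Per kilobase of annotated exon, *Phgdh* had the highest mean level in ctrl, at 111 CPM per kb, followed by *Psat1* at 72.1, *Atf4* at 42.4, *Shmt2* at 35.1 and *Asns* at 23.3 CPM per kb. *Ddit3* at 14.8, *Psph* at 10.3, *Mthfd2* at 6.95, *Chac1* at 5.96 and *Trib3* at 4.78 CPM per kb followed. In cko *Psat1* reached 109 CPM per kb beside 114 for *Phgdh*, and *Trib3* was at 0.539 CPM per kb. Among neighbours in this order only *Psat1* and *Atf4* did not overlap in range over the 5 libraries.

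Upstream of ATF4, a list of 18 genes covered the eIF2 kinases, eIF2 phosphatase subunits, eIF2 itself and eIF2B. It also held *Gcn1*, *Nck1*, *Dele1* and *Oma1*. Of the 18 genes 1 was called (5.56%), beside 16.4% of all tested genes, and the median log2 fold change was -0.02. The called gene was *Ppp1r15a*, which encodes the inducible eIF2 phosphatase subunit GADD34, lower at -0.69 (edgeR adjusted p = 0.0305). No gene of this list was called with any cko library left out, and the list median was -0.12 without ctrl 1 and 0.06 without ctrl 3. None of the 4 eIF2 kinases was called, with log2 fold changes of 0.12 for *Eif2ak1*, 0.06 for *Eif2ak2*, 0.16 for *Eif2ak3* (PERK) and -0.30 for *Eif2ak4* (GCN2; edgeR adjusted p = 0.0710). Of the 23 tested genes of the endoplasmic reticulum chaperone and unfolded protein response list, 1 was called higher (*Sdf2l1*, 0.70) and 1 lower (*Hyou1*, -0.28). That was 4.35% in each direction, beside 7.86% and 8.57% of all tested genes. *Hspa5*, the chaperone BiP, was at -0.10 and was not called. With any cko library left out none of the endoplasmic reticulum list was called, and its median was -0.03 without ctrl 1 and -0.12 without ctrl 3.

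Downstream of ATF4, the list of other targets leaves out the members and the separate transporter list, which hold genes called higher (*Psat1*, *Slc38a1* and *Slc38a2*). Of its 23 tested genes, 5 (21.7%) were called, all lower, beside 8.57% of all tested genes called lower, with a median log2 fold change of -0.32. Those with the smallest p were *Cebpb*, a C/EBP partner of ATF4, at a log2 fold change of -2.30, *Atf5*, a related factor, at -1.29, *Vegfa*, an angiogenic growth factor, at -2.96, and *Slc7a11*, the cystine importer, at -1.46. In all of these the 3 cko libraries were below both ctrl libraries, as in 9 of the 23 genes of the list, beside 24.3% of all tested genes. Of this list 20 genes were higher in ctrl 3 than in ctrl 1, beside 49.4% of all tested genes, and 9 of them over 2-fold, beside 4.23%. Without cko 1, cko 2 or cko 3 there were 3, 1 and 1 called lower, and the list median was -0.71 without ctrl 1 and -0.06 without ctrl 3. *Vegfa* for example was at 182 CPM in ctrl 1, at 855 CPM in ctrl 3 and at 46.7 to 89.8 CPM in cko.

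Of 17 amino acid transporters 2 were called higher (11.8%) and 4 lower (23.5%), beside 7.86% and 8.57% of all tested genes. The sodium-coupled neutral amino acid transporters *Slc38a1* and *Slc38a2* rose by 0.62 and 0.59 on the log2 scale. The transporters that fell were *Slc6a9*, which carries glycine, from 133 and 205 CPM in ctrl to between 37.3 and 50.6 CPM in cko, *Slc1a1*, which carries glutamate, at a log2 fold change of -1.20, and *Slc7a5* and *Slc3a2*, the subunits of the large neutral amino acid exchanger, at -1.26 and -0.99. Of 20 cytosolic aminoacyl-tRNA synthetases 1 was called lower (5%), with a list median of -0.05. In ctrl 3, 18 of them were higher than in ctrl 1, beside 49.4% of all tested genes. Without any 1 cko library 2 transporters were called lower and 1 higher. For the synthetases 1 was called lower without cko 1, and none was called without cko 2 or cko 3. The median of the transporters was -0.14 without ctrl 1 and 0.06 without ctrl 3, and that of the synthetases -0.25 and 0.15.

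Around the one-carbon members, 3 of 24 tested folate and glycine genes were called higher (12.5%) and 6 lower (25%), beside 7.86% and 8.57% of all tested genes. Those that rose included *Ahcy*, which hydrolyses S-adenosylhomocysteine, by 0.54 on the log2 scale, and *Tyms*, thymidylate synthase, by 0.76. Those that fell included *Cbs*, which condenses serine with homocysteine, at a log2 fold change of -1.57, *Sardh*, sarcosine dehydrogenase, at -0.79, *Gldc* of the glycine cleavage system at -0.49, and *Mat2a*, which makes S-adenosylmethionine, at -0.34. The paralogs of the 2 one-carbon members were not called, with log2 fold changes of 0.35 for *Shmt1*, -0.05 for *Mthfd1*, 0.43 for *Mthfd1l* and 0.28 for *Mthfd2l*. Without cko 2 or cko 3 none of the list was called higher, and 2 and 3 were lower. The list median was -0.18 without ctrl 1 and -0.02 without ctrl 3.

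**Figure D4:**
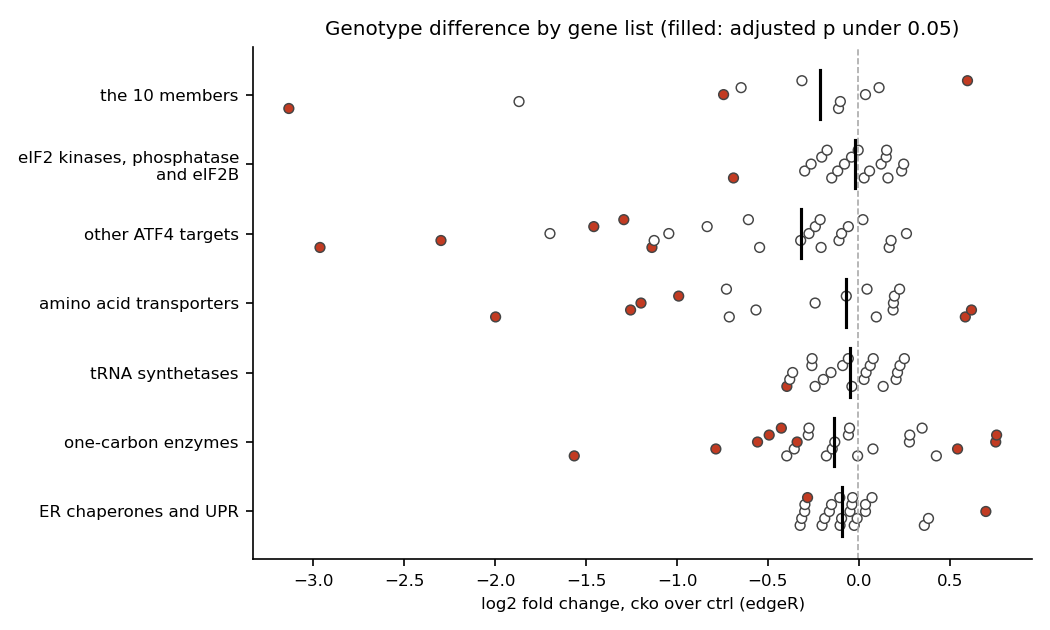
Log2 fold change of cko over ctrl from edgeR for the members and each tested gene of the 6 related lists; filled points were called at an adjusted p under 0.05, black bars are list medians and the dashed line is the median of all tested genes. Called genes of the other ATF4 target list all lie below 0, and those of the transporter and one-carbon lists lie on both sides.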

How the data were processed

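The authors deposited 1 table of raw read counts per gene with 6 columns. The study's methods name FastQC, HISAT2, the mouse mm10 genome and DESeq2, while the submitters' processing notes name GRCm39, and the counting tool and strand setting are not given in the sources used here. Ctrl column 2 was left out of every n. Gene names and coordinates came from GENCODE M21 (GRCm38), which matched 31836 of the 32493 IDs. The 657 unmatched IDs stayed in the fit, with 0.181 to 0.299% of counts. Counts from 5 libraries were fitted in R 4.3.3 with edgeR 4.0.16 (filterByExpr, TMM, quasi-likelihood test, Benjamini-Hochberg adjustment), which was tested on simulated data. A count of 3 corresponded to 0.129 to 0.168 CPM. All 10 members were named. From each list up to 4 called genes per direction were named by smallest p, with fixed kinases and paralogs whatever their values, with marker genes to check the cell type. Some genes that this rule would name are not reported here. Members and lists were chosen with earlier results of these data known. The 13 alternatives included DESeq2 1.42.0, other filters and leaving out each library.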

Additional observations from a re-analysis of the deposited data

How the results depend on the processing

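Called higher and lower, leaving out 1 library each time gave 317 to 1812 and 416 to 2062 genes over all genes, 0 to 3 and 0 to 7 members, 0 to 0 and 0 to 3 for the eIF2 list, 0 to 4 and 1 to 14 for other ATF4 targets, 1 to 2 and 2 to 8 for transporters, 0 to 1 and 0 to 8 for tRNA synthetases, 0 to 5 and 2 to 9 for one-carbon enzymes, and 0 to 1 and 0 to 4 for the endoplasmic reticulum list. Those fits moved the log2 fold change of *Atf4* between -0.41 and 0.27, *Asns* between -0.86 and 0.55, *Shmt2* between -0.40 and 0.23, *Mthfd2* between -1.38 and 0.83 and *Phgdh* between -0.032 and 0.10. Fits with 1 ctrl library assume that it varies like the cko group. *Ddit3*, *Trib3*, *Chac1*, *Psat1* and *Psph* kept their direction in 13 of 13 alternatives, of which the study's threshold reuses the main fit. *Chac1* came as near 0 as -0.14 and *Psph* as near as 0.017.

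With no filter on low counts, 2237 genes and 5 members were called lower, 1 and 10 other ATF4 targets higher and lower, 7 transporters and 3 tRNA synthetases lower, and 2 and 2 endoplasmic reticulum genes higher and lower; the cause was not tested. DESeq2 called 2 tRNA synthetases lower. With all 6 columns, higher and lower calls were 2865 and 2794 over all genes, 3 and 2 in the eIF2 list, 4 and 2 tRNA synthetases, 2 and 5 endoplasmic reticulum genes, 9 other ATF4 targets lower, 4 transporters higher and 5 one-carbon enzymes higher, with ctrl column 2 adding no independent library. The study set its threshold on DESeq2 results, and it was applied here to the edgeR fit on 5 libraries. At that threshold 399 and 696 genes, 0 and 1 members and 0 and 1 one-carbon enzymes passed. There were 0 transporters higher, 0 eIF2 genes lower, 0 tRNA synthetases lower and 0 endoplasmic reticulum genes either way.

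Replicate numbers are shared by the groups, but the labels do not say what a number marks. Deviations from the group mean correlated at 0.20 for number 1, 0.057 for number 3 and 0.19 between ctrl 3 and cko 2, whose numbers differ. The deviations of the 2 ctrl libraries are mirror images and those of the cko libraries cancel out, so these values are tied together. They cannot decide whether a shared number marks a pair. With the replicate block, 1 member was called higher and 2 lower, with 918 and 1065 genes over all genes. In that fit cko 2 is the only library of its number, so it adds nothing to the genotype difference. *Phgdh* was at -0.0068. There were 0 eIF2 genes, 8 other ATF4 targets, 0 tRNA synthetases and 3 one-carbon enzymes lower, and 0 and 0 endoplasmic reticulum genes were called. The replicate block with all 6 columns gave 2675 and 2673 genes, 1 and 2 eIF2 genes, 1 and 9 other ATF4 targets, 4 and 3 tRNA synthetases, 7 one-carbon enzymes higher and 3 and 4 endoplasmic reticulum genes.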
